A study of Mus musculus with 18 samples.

Results

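The immediate early response genes *Fos*, *Jun*, *Junb*, *Egr1*, *Ier2*, *Ier3*, *Atf3*, *Myc* and *Dusp1* were taken by name from a deposited expression table. The rule that picks them uses no measured value, but it was written with earlier results of these data known. They are 9 of its 18659 genes, and all 9 were detected in each of its 16 RNA-seq libraries. The libraries were made from rRNA-depleted RNA of mESCs, mouse embryonic stem cells of the male E14 line grown in serum (FCS) with LIF. Cells were transfected for 24 h with siRNAs to *Stag1*, which encodes a subunit of the cohesin complex, to ask what its loss does to the transcriptome. SP is an siRNA pool to *Stag1*, 3p a subset of that pool towards the 3′ end of the transcript and 5p a single custom duplex towards its 5′ end, and SATS is an esiRNA, made by enzymatic digestion, to SATS, an alternative start site of *Stag1* upstream of the usual one. The control in every replicate set was a synthetic scrambled siRNA (scr). Set 1 held 1 scr and 3 SP libraries (1a, 1b and 1c). Sets 2 and 3 held 1 library each of scr, SP, 3p, 5p and SATS, with 1 library of untreated cells in set 2 and 1 of luciferase esiRNA in set 3. The esiRNA control therefore stood beside SATS in set 3 alone, and untreated cells were sequenced in set 2 alone.

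Immediate early genes are transcribed within minutes of a growth factor, serum or stress signal, from transcription factors that are already present in the cell and without new protein. The signal usually runs through the MAP kinases to SRF with its TCF partners or to CREB at the promoter, and the transcripts are short-lived because AU-rich elements mark them for decay. FOS, JUN, JUNB and ATF3 are bZIP proteins that pair into AP-1 and related dimers, EGR1 is a zinc finger factor, MYC drives growth genes, and DUSP1 is a phosphatase that switches MAP kinases off again. Serum, one source of such signals, is part of the medium of these cells.

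*Stag1* stood at 17.3% to 23.5% of scr of its own set in the SP, 3p and 5p libraries of sets 2 and 3, at 25.4% to 32.8% under SP in set 1, at 50.5% and 49.7% under SATS, at 86.3% in untreated cells and at 104% under luciferase. Set 1 was shallow, with 9023224 to 14040830 reads on genes of which 69.2% to 79.1% fell on *Rn45s*, the rRNA precursor, against 32137666 to 45660840 reads and 14.7% to 23.9% in sets 2 and 3. One read was worth 3.22 to 8.05 units of the normalized count in set 1 and 0.353 to 0.479 in sets 2 and 3. The 10 stem cell markers, such as *Pou5f1*, *Sox2* and *Nanog*, were all detected, with a summed normalized count of 47781 to 55827 in sets 2 and 3.

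The RefSeq promoter table (GRCm38.p6, the build mm10) holds 6 of the 9 genes, *Fos*, *Jun*, *Junb*, *Ier3*, *Atf3* and *Dusp1*. The 250 bases before the annotated start are printed for *Dusp1*, *Junb* and *Atf3*, which are the genes that differed between siRNAs below, and for *Fos*, the best known of the family. Capitals mark the CREB element: TGACG, the core, or the whole palindrome TGACGTCA, each read on both strands, so that CGTCA is the core on the other strand.
Dusp1, chr17:26508473-26508722, minus strand: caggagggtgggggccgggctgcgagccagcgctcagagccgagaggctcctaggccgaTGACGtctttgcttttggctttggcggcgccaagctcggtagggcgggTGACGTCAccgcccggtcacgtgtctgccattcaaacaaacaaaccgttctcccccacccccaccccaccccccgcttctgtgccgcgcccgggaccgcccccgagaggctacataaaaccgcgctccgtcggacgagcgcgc
Junb, chr8:84978749-84978998, minus strand: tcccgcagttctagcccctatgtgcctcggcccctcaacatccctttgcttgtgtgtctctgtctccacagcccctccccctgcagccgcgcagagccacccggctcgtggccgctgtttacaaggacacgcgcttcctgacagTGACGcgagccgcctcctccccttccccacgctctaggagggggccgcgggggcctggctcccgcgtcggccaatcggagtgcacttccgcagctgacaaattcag
Atf3, chr1:191183334-191183583, minus strand: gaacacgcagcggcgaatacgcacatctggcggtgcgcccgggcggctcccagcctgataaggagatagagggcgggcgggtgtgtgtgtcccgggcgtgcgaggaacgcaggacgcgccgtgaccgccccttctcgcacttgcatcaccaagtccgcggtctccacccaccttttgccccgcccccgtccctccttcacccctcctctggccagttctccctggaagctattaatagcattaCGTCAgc
Fos, chr12:85473640-85473889, plus strand: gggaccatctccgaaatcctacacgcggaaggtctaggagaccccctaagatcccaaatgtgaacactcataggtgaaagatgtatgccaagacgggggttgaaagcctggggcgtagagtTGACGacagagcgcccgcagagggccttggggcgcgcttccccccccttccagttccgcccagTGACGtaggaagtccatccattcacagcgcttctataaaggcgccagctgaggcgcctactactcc
The core was found in these 4 promoters and in neither *Jun* nor *Ier3*, and 17.8% of the 32851 promoters of the table hold it in the same window. In *Dusp1* 1 copy lies 191 to 187 bases before the start, and the palindrome, which overlaps the core on both strands, lies 143 to 136 bases before it. That palindrome was in 1.55% of all promoters and in no other of the 6. *Fos* holds 2 cores, 129 to 125 and 66 to 62 bases before the start, and the TATA box sequence TATAAA (given strand) 33 to 28 bases before it, as do 7.59% of promoters. *Junb* holds 1 core 106 to 102 bases before its start and *Atf3* 1 core 7 to 3 bases before its start. The CArG box, the site SRF is known to bind, was matched in none of the 6 windows (1.47% of all promoters) and the AP-1 site TGACTCA or TGAGTCA, on both strands, in none of them either (4.46%). These matches describe letters in the 250 bases before the start only. Sites further upstream were not searched, so a window without a match does not mean a promoter without the site, and no binding was measured.

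Of the 9 genes, *Junb*, *Atf3* and *Dusp1* were the ones with a difference between siRNAs that passed with all libraries, and in each the 5p library was the lowest of the siRNA libraries of its set. *Junb* and *Dusp1* were lower under 5p than under scr, and *Junb* and *Atf3* were lower under 5p than under 3p, with log2 fold changes of −0.69 to −0.45, when the replicate set was entered as a block. Without the block none of the 9 passed in any comparison of siRNAs. *Fos* and *Dusp1* were below the scr library of their set in all 10 other libraries of sets 2 and 3, the untreated and luciferase libraries included. *Ier3* was highest under SATS and lowest under 5p in both sets, and passed with all libraries in neither comparison. *Egr1*, *Ier2* and *Jun* differed from scr by −0.37 to 0.23 in these sets and passed in none of the comparisons of siRNAs.

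**Figure D1:**
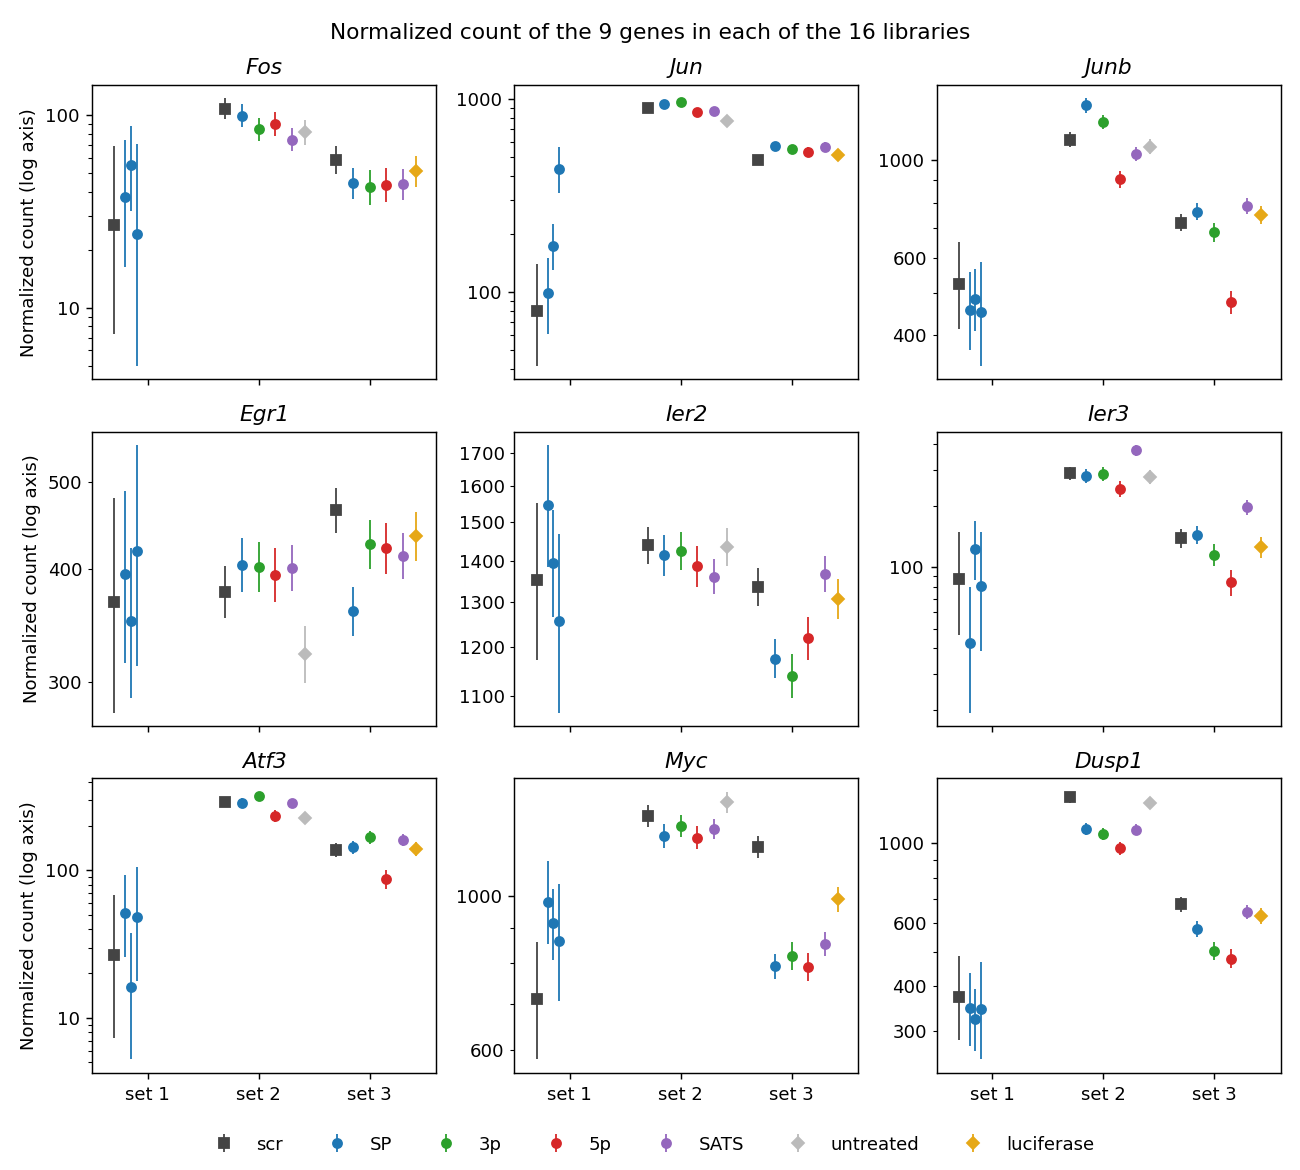
Normalized count (log axis) of each of the 9 genes in the 16 libraries, grouped by replicate set and coloured by siRNA; squares are scr, diamonds the untreated (set 2) and luciferase (set 3) libraries, and bars the 95% Poisson interval of the reads, which covers counting error only. The 5p library is the lowest of the siRNA libraries in sets 2 and 3 for *Junb*, *Ier3*, *Atf3*, *Myc* and *Dusp1*, and set 3 lies below set 2 for 7 genes.

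*Dusp1* (chr17:26505591-26508472) encodes the phosphatase that removes phosphates from ERK, JNK and p38. In set 2 its normalized count was 1345 in scr, 1097 in SP, 1063 in 3p, 968 in 5p, 1090 in SATS and 1292 in untreated cells. The same libraries of set 3, with luciferase in place of untreated cells, had 677 in scr, 579 in SP, 502 in 3p, 478 in 5p, 645 in SATS and 628 under luciferase. The scr library was the highest of its set both times and the 5p library the lowest. In set 1 it was 375 in scr and 348, 325 and 346 in SP 1a, 1b and 1c, from 43 to 101 reads each. *Dusp1* thus lay below scr in all 13 other libraries, as did 0.752% of the 16490 genes tested in sets 2 and 3. These 13 differences rest on 3 scr libraries, so they are not 13 separate comparisons. The 95% Poisson interval overlapped that of scr of the same set in the SP libraries of set 1, in untreated cells, under luciferase and under SATS in set 3. The log2 difference from scr ran from −0.50 under 5p in set 3 to −0.06 in untreated cells, and under SATS it was −0.30 in set 2 and −0.07 in set 3.

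For 5p against scr the fitted log2 fold change of *Dusp1* was −0.49. Its SE was 0.55 without a block (limma, adjusted p = 1.00) and 0.09 once the set was a block (limma, adjusted p = 0.00973), and the edgeR fit with the block on recovered reads gave an adjusted p of 0.00868. Left without 1 library at a time, the blocked fold change stayed between −0.53 and −0.45, while the limma adjusted p was 0.0267 without the 5p library of set 2, 0.147 without scr of set 2, 0.142 without scr of set 3 and 0.143 without 5p of set 3. The call was thus lost without either scr library or the 5p library of set 3. For 3p against scr the fold change of *Dusp1* was −0.38 ± 0.09 (SE, limma with the block, adjusted p = 0.091), and for SP it was −0.26 ± 0.09 (SE, limma with the block, adjusted p = 0.217). Neither passed.

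*Junb* (chr8:84976909-84978748) encodes an AP-1 subunit that can restrain JUN. In set 2 its normalized count was 1112 in scr, 1331 in SP, 1222 in 3p, 905 in 5p, 1031 in SATS and 1073 in untreated cells. Set 3 had 722 in scr, 764 in SP, 685 in 3p, 475 in 5p, 786 in SATS and 751 under luciferase. The 5p library was the lowest in both sets, and in set 3 it stood apart from the other libraries, which lay between 685 and 786. In set 1 the counts were 522 in scr and 456, 482 and 451 in SP, from 56 to 150 reads. The fold change for 5p against scr was −0.45, with an SE of 0.43 without the block (limma, adjusted p = 1.00) and of 0.11 with it (limma, adjusted p = 0.0475; edgeR with the block 0.0445). With the block, the limma adjusted p was 0.031 without 5p of set 2 and between 0.204 and 0.403 without scr of set 2, scr of set 3 or 5p of set 3.

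*Atf3* (chr1:191170296-191183333) encodes a stress-induced bZIP repressor. Its normalized count in set 2 was 291 in scr, 287 in SP, 318 in 3p, 235 in 5p, 287 in SATS and 228 in untreated cells, so the untreated library was below 5p. Set 3 had 138 in scr, 144 in SP, 169 in 3p, 87.0 in 5p, 160 in SATS and 141 under luciferase. Among the siRNA libraries 5p was the lowest and 3p the highest in both sets. In set 1 only 4 to 11 reads fell on *Atf3*, and the counts of 26.8 in scr and 51.7, 16.1 and 48.3 in SP overlapped within counting error. For 5p against scr the fold change of *Atf3* was −0.48 ± 0.13 (SE, limma with the block, adjusted p = 0.0735), which did not pass. It passed without the 5p library of set 2 (limma, adjusted p = 0.0137).

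The direct comparison of 5p with 3p takes its fold changes from these groups alone, while its SE comes from the fit of all 10 libraries, scr included. *Stag1* stood at 23.5% and 19.0% of scr under 5p and at 20.9% and 17.3% under 3p. *Atf3* was lower under 5p by −0.69 on the log2 scale, with an SE of 0.62 without the block (limma, adjusted p = 1.00) and of 0.13 with it (limma, adjusted p = 0.0108; edgeR with the block 0.0109). *Junb* was lower by −0.48, with an SE of 0.11 with the block (limma, adjusted p = 0.0278; edgeR with the block 0.0247). *Atf3* kept a limma adjusted p of 0.019 without 3p of set 2 and 0.0024 without 5p of set 2, and had 0.131 without 3p of set 3 and 0.22 without 5p of set 3. *Junb* kept 0.0177 in limma without 5p of set 2 and had 0.0815 to 0.407 without any other of the 4 libraries. The remaining 7 genes did not pass, and their fold changes lay between −0.34 for *Ier3* and 0.06 for *Fos*.

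*Ier3* (chr17:35821713-35822911) encodes a short stress-response protein that acts on ERK signalling and cell survival. In set 2 its normalized count was 288 in scr, 279 in SP, 286 in 3p, 242 in 5p, 373 in SATS and 278 in untreated cells. For set 3 the values were 138 in scr, 144 in SP, 114 in 3p, 84.2 in 5p, 197 in SATS and 125 under luciferase. SATS was the highest and 5p the lowest library of both sets. The fold change was 0.44 ± 0.14 for SATS against scr (SE, limma with the block, adjusted p = 0.104) and −0.48 ± 0.14 for 5p against scr (SE, limma with the block, adjusted p = 0.0932), so neither passed. Without the 5p library of set 2 the latter passed (limma with the block, −0.71, adjusted p = 0.025). In set 3 luciferase, the other esiRNA, differed from scr by −0.14 on the log2 scale and SATS by 0.50. Beside *Ier3*, the summed trophectoderm markers stood at 121% and 149% of scr under SATS in sets 2 and 3, *Krt7* and *Krt8* rose (0.64 and 0.54, limma with the block, adjusted p = 0.0203 and 0.0374), and the summed heat shock genes stood at 118% and 127%. Within these lists 3 of 7 trophectoderm markers (median 0.01) and 3 of 8 heat shock genes (median 0.07) were lower under SATS. Their part in the *Ier3* values was not tested.

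*Fos* (chr12:85473890-85477274), the classic AP-1 partner of JUN, was the least counted of the 9 genes in sets 2 and 3. Its normalized count in set 2 was 108 in scr, 99.1 in SP, 84.4 in 3p, 89.7 in 5p, 74.4 in SATS and 81.4 in untreated cells, from 186 to 257 reads. Set 3 showed 58.3 in scr, 44.1 in SP, 42.3 in 3p, 43.5 in 5p, 43.7 in SATS and 50.9 under luciferase, from 94 to 147 reads. The scr library was the highest of both sets. The 95% Poisson interval overlapped that of scr of the same set in every library of these sets except SATS and untreated cells of set 2. *Fos* and *Dusp1* are the 2 of the 9 genes that lay below scr in all 10 other libraries of these sets, where 2.86% of all genes tested do. The control libraries are among them: in set 2 the log2 difference from scr was −0.40 in untreated cells and −0.53 to −0.12 in the KD libraries, and in set 3 it was −0.19 under luciferase and −0.45 to −0.39 in the KD libraries. The largest fitted fold change of *Fos* was −0.47 ± 0.15 for SATS (SE, limma with the block, adjusted p = 0.108), followed by −0.40 ± 0.15 for 3p (SE, limma with the block, adjusted p = 0.357). In set 1, 3 to 17 reads gave counts of 26.8 in scr and 37.6, 54.7 and 24.2 in SP.

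*Myc* (chr15:61985341-61990361) encodes the transcription factor that promotes growth and supports self-renewal of mESCs. Its normalized count in set 2 was 1306 in scr, 1222 in SP, 1264 in 3p, 1216 in 5p, 1249 in SATS and 1366 in untreated cells. In set 3 it was 1179 in scr, 792 in SP, 820 in 3p, 791 in 5p, 853 in SATS and 990 under luciferase. The log2 difference of the *Stag1* KD libraries from scr was −0.10 to −0.05 in set 2 and −0.58 to −0.47 in set 3. The luciferase library of set 3 lay between scr and the KD libraries, with −0.25. In set 1 all 3 SP libraries were higher than scr, with 982, 913 and 862 against 710. The fold change for 5p against scr in sets 2 and 3 was −0.34 ± 0.11 (SE, limma with the block, adjusted p = 0.123) and that for SP −0.33 ± 0.11 (SE, limma with the block, adjusted p = 0.19). *Myc* passed in no blocked fit with all libraries. Without scr of set 2 its blocked fold change for 5p was −0.57. In the blocked limma fit of SP over the 3 sets it passed once set 1 was left out (adjusted p = 0.0207). That fit holds the same scr and SP libraries, and gives the same fold change, as the SP fit of sets 2 and 3, which did not pass. It takes its spread from these libraries alone and not from all 10 libraries of sets 2 and 3.

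*Jun* (chr4:95049036-95052222), which encodes the central AP-1 subunit, had a normalized count of 896 in scr, 947 in SP, 971 in 3p, 857 in 5p, 871 in SATS and 768 in untreated cells of set 2. Set 3 held 484 in scr, 569 in SP, 551 in 3p, 531 in 5p, 569 in SATS and 515 under luciferase, so scr was the lowest library. In set 1 the counts were 80.4 in scr (12 reads, 95% Poisson interval 41.5 to 140), 98.7 in SP 1a, 174 in SP 1b and 435 in SP 1c (54 reads, interval 327 to 567). Library 1c stood apart from the other SP libraries of its set. In 1c the summed trophectoderm markers were at 400% of scr, against 62.6% in 1a and 75.0% in 1b. The summed fibroblast markers were at 222%, the primitive endoderm markers at 16.4% and the stem cell markers at 67.5%. The fibroblast sum rests on few reads, with 475 in 1c and 214 in scr, where 1 read was worth 8.05 and 6.70. *Col3a1*, *Dcn*, *Lum* and *Postn* of that list and *Cdx2* and *Elf5* of the trophectoderm list were under 3 reads in every library of set 1. The part of these markers in the *Jun* value was not tested. Averaging the SP libraries of set 1 gave a fold change of 0.62 for *Jun* over the 3 sets, with an SE of 0.91 without the block (limma, adjusted p = 1.00) and 0.28 with it (limma, adjusted p = 0.759). Without set 1 it was 0.16, and without set 2 or set 3 it was 0.89 or 0.81, and none of these passed with the block (limma, adjusted p 0.526 to 0.893).

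*Egr1*, an immediate early zinc finger factor, had the smallest fitted difference of the 9 between sets 2 and 3, over the siRNA groups together. Its normalized count in set 2 was 378 in scr, 405 in SP, 403 in 3p, 394 in 5p, 402 in SATS and 322 in untreated cells. In set 3 it was 465 in scr, 359 in SP, 426 in 3p, 422 in 5p, 414 in SATS and 435 under luciferase. The 4 KD libraries were above scr in set 2 and below it in set 3. *Ier2* (chr8:84661331-84662852), whose product is a nuclear protein of the early response, ran from 1361 to 1439 in set 2 and from 1139 to 1368 in set 3. Its fold changes against scr in sets 2 and 3 ran from −0.12 for 3p to −0.02 for SATS. In set 1 *Egr1* ran from 351 to 419 and *Ier2* from 1256 to 1547.

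**Figure D2:**
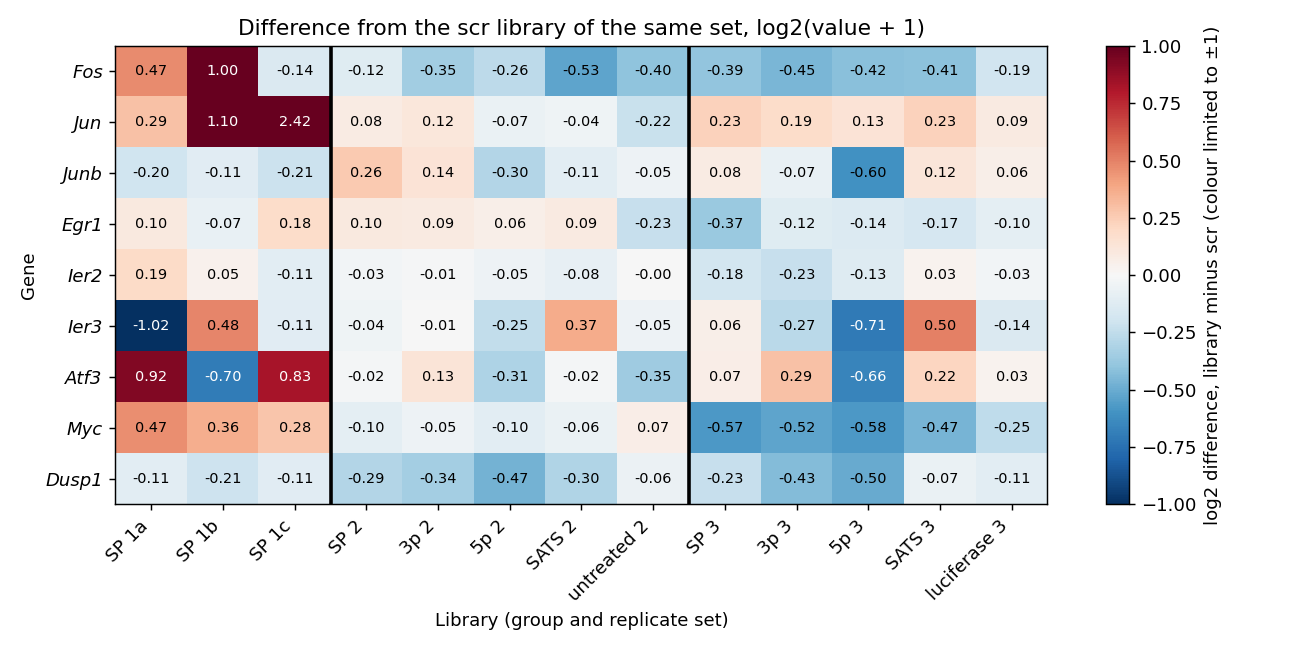
Log2 difference of each library (columns, by set) from the scr library of its own set, for the 9 genes (rows), with the value printed in each cell; the colour stops at 1 and set 1 rests on few reads for *Fos*, *Jun*, *Ier3* and *Atf3*. The 5p columns hold 8 negative values in either set, and the *Dusp1* row is negative throughout.

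Counted over the 9 genes, limma without the block called 0 for SP over the 3 sets (0% of all genes tested were called), 0 for SP (0.00606%), 0 for 3p (0.00606%), 0 for 5p (0.0121%), 0 for SATS (0%) and 0 for 5p against 3p (0%) in sets 2 and 3. None of the 9 had an unadjusted limma p under 0.05 in these comparisons, and edgeR and DESeq2 on the recovered reads without the block called none of them either. Blocked by set, limma called 0 of the 9 for SP over the 3 sets (0% of all genes), 0 for SP (0.746%), 0 for 3p (0.285%) and 0 for SATS (2.64%), and the unadjusted p was under 0.05 for 1, 2, 3 and 3 genes, against 5.85%, 12.5%, 10.4% and 18.8% of all genes. For 5p against scr and 5p against 3p it was so for 6 and 3 of the 9, against 15.7% and 15.8% of all genes. It called 2 of the 9 for 5p against scr, where 2.37% of all genes were called and 1.71% were called lower, and 2 of the 9 for 5p against 3p, where 3.26% were called and 1.95% were called lower. The 4 comparisons with scr share the scr libraries of sets 2 and 3. The median fold change of the 9 genes was −0.34 for 5p, where 8 of the 9 were lower and the median of all genes was 0.01, against −0.10 for SP, −0.12 for 3p and −0.02 for SATS. The 5p library was the lowest of the 5 siRNA libraries in both sets for 5 of the 9 genes, as it was for 8.56% of all genes.

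**Figure D3:**
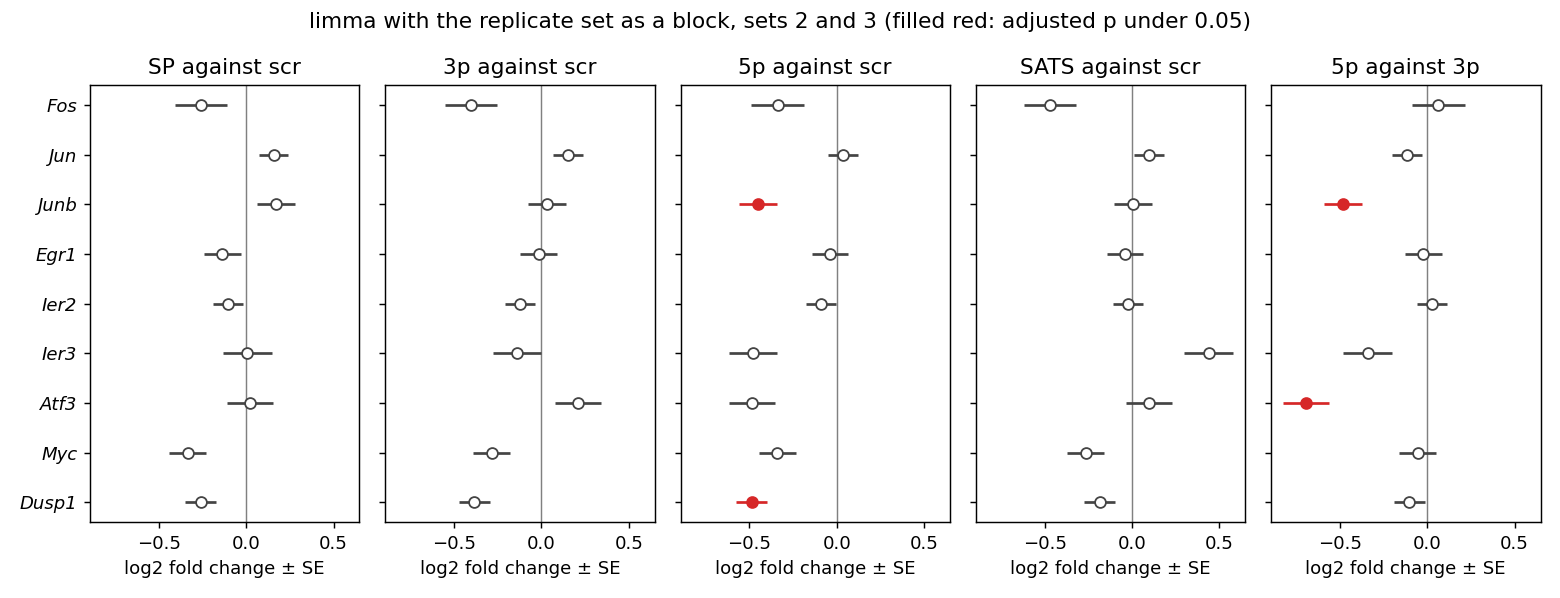
Log2 fold change with its SE (x axis) for the 9 genes (y axis) in 5 comparisons over sets 2 and 3, from limma with the replicate set as a block; filled red points had an adjusted p under 0.05. *Junb* and *Dusp1* pass for 5p against scr, and *Atf3* and *Junb* for 5p against 3p.

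Set 3 differed from set 2 in most of these genes. In set 3 against set 2, with the siRNA group as a covariate, 8 of the 9 genes were lower and passed (limma), where 51.6% of all genes tested passed and 27.4% were lower in set 3. The fold changes were −1.15 for *Ier3*, −1.05 for *Atf3*, −0.96 for *Fos*, −0.95 for *Dusp1*, −0.75 for *Jun*, −0.72 for *Junb* and −0.51 for *Myc*, with SEs of 0.05 to 0.09 and limma adjusted p of at most 2.54e-05. *Ier2* was lower by −0.18 ± 0.05 (SE, limma, adjusted p = 0.0149), and this call was lost without the SP or 3p library of either set (limma, adjusted p 0.0624 to 0.0683). *Egr1* did not pass (0.07 ± 0.07, SE, limma, adjusted p = 0.393). For 7 of the 9 genes all 6 libraries of set 3 lay below all 6 of set 2, as they did for 15.1% of all genes. Related early genes did not all go this way. Of 15 other immediate early transcription factors 5 passed as lower and 4 as higher, among them *Egr2* (1.32), *Egr3* (0.98) and *Nr4a3* (0.69), with a median of 0.02. Of 23 other immediate early effectors 19 passed as lower and 1 as higher. Markers of other cell types differed between these sets too. The summed trophectoderm markers ran from 23660 to 32763 in set 2 and from 5943 to 12375 in set 3, with 5 of 7 tested passing as lower and *Eomes* as higher (0.90), and the summed fibroblast markers from 2665 to 5822 and from 384 to 582, with 6 of 7 tested passing as lower. Of 8 primitive endoderm markers 3 passed as lower and 2 as higher, *Gata4* (0.82) and *Sox17* (0.66). The stem cell markers differed as well. *Esrrb* (−0.80), *Zfp42* (−0.80), *Nanog* (−0.55) and *Sox2* (−0.36) passed as lower and *Tdgf1* (0.87) as higher, and the rest of that list did not pass. *Elf5* was under 3 reads in every library of set 3, and every fibroblast marker reached 3 reads in at least 1 library of each of these sets. Their part in the set difference was not tested. In bulk RNA, fewer cells that express a gene and less of its RNA per cell cannot be told apart.

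Genes of related lists also fell under 5p. Of the other AP-1 and related bZIP genes, 12 were tested and 2 fell in the blocked limma fit of 5p against scr: *Mafk*, a small MAF factor (−0.60), and *Jund*, the constitutive JUN protein (−0.38), with a median of −0.33 over the list. Of 15 other immediate early transcription factors 3 fell, *Ier5* (−0.68), *Klf10*, a TGF-β-inducible factor (−0.54), and *Csrnp1* (−0.33), with a median of −0.24. Of 23 other immediate early effectors 5 fell: *Gadd45b* (−0.60), *Hbegf*, an EGF receptor ligand (−0.54), the kinase *Pim1* (−0.51), *Arc* (−0.44) and the kinase *Sik1* (−0.38), with a median of −0.23. The median over all genes was 0.01, 1.71% of all genes were called lower in that fit, and none of these 3 lists held a gene that passed as higher. Without the block, limma called none of the genes named here. The lists, like the 9 genes, were chosen with earlier results of these data known.

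Among the genes of these lists, *Fosb* (−0.996), *Fosl1* (−0.89), *Mafk* (−0.70), *Ier5* (−0.61) and *Klf10* (−0.30) were lower under 5p than under 3p in the blocked limma fit. So were *Btg2*, an antiproliferative factor (−0.75), *Phlda1* (−0.64), *Gadd45b* (−0.61) and the clock gene *Per1* (−0.38), and *Sgk1* was higher (0.32). In that fit 1.95% of all genes were called lower. *Btg2* (−0.07), *Sgk1* (0.14), *Fosb*, *Fosl1*, *Phlda1* and *Per1* did not pass for 5p against scr. Under SP *Btg2* rose (0.74) and *Maff* fell (−0.52), and under 3p *Btg2* rose (0.67). Under SATS *Ier5* (0.42) and *Rhob* (0.34) rose and *Arc* fell (−0.38). *Ier5* therefore passed in opposite directions under 5p and SATS, each against the same scr libraries.

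**Figure D4:**
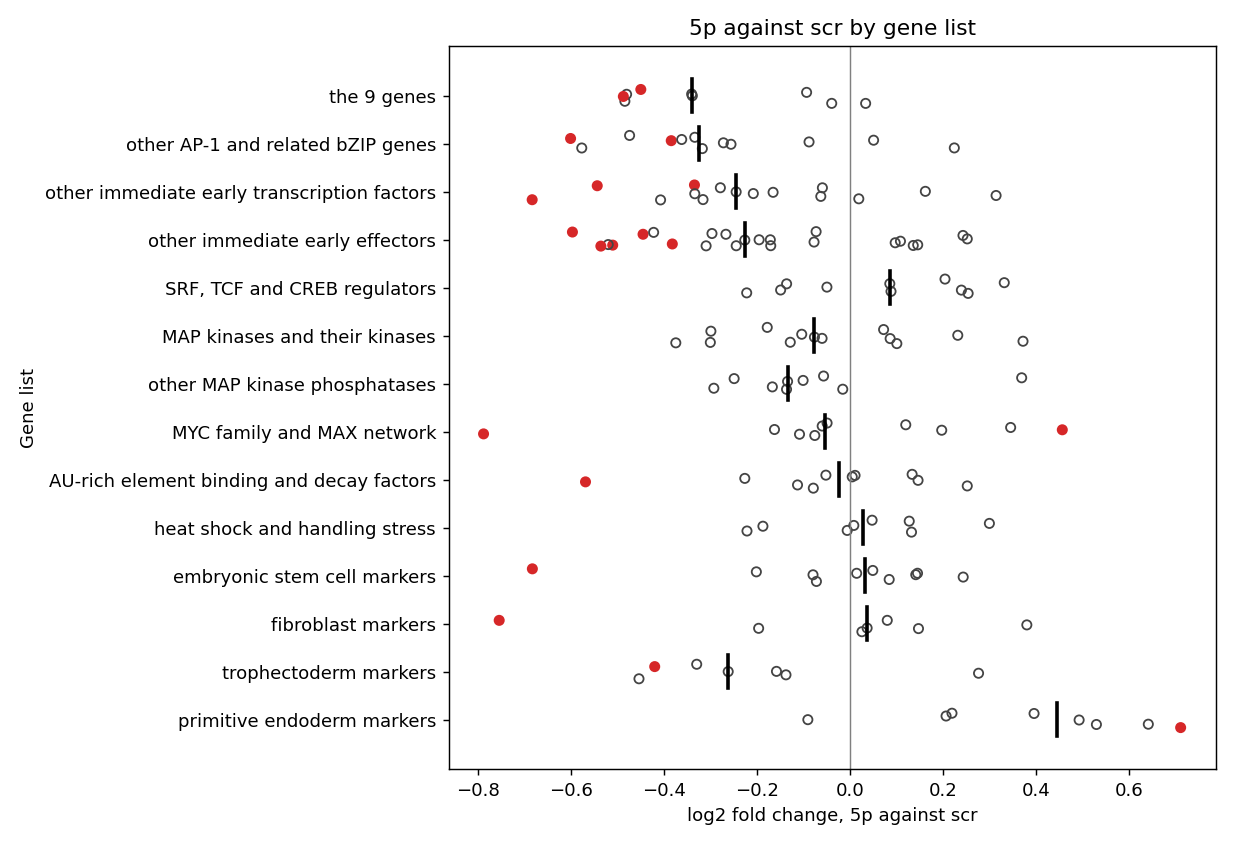
Log2 fold change of 5p against scr (x axis) for each tested gene of the 9 and of 13 other lists (y axis), from limma with the replicate set as a block; filled red points had an adjusted p under 0.05 and black bars are list medians. The 9 genes and the other immediate early lists have medians between −0.34 and −0.23, and the primitive endoderm markers a median of 0.45.

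None of the listed regulators, MAP kinases and other MAP kinase phosphatases passed in a comparison of siRNAs in sets 2 and 3. With the block, limma called 0.285% to 3.26% of all genes in these comparisons, so 0 in lists this short is near that share. It called 0 of 10 SRF, TCF and CREB regulators, 0 of 13 MAP kinases and their kinases and 0 of 9 other MAP kinase phosphatases in any of the 4 comparisons with scr or in 5p against 3p. Their medians for 5p were 0.09, −0.08 and −0.13. Averaged over the 8 KD libraries, the lowest and highest among the regulators were *Ep300* (−0.18), *Crebbp* (−0.18), *Crem* (0.15) and *Elk4* (0.23), among the kinases *Braf* (−0.16), *Map2k1* (−0.15), *Mapk3* (0.07) and *Mapk8* (0.07), and among the phosphatases *Dusp4* (−0.24), *Dusp6* (−0.15), *Dusp16* (0.02) and *Dusp8* (0.49). On the same scale the other early genes ran from *Sik1* (−0.33), *Arc* (−0.32), *Klf10* (−0.28), *Maff* (−0.24) and *Jund* (−0.17) through *Klf6* (−0.04), *Id1* (−0.04), *Atf2* (0.02) and *Atf7* (0.10) to *Rhob* (0.17) and *Btg2* (0.41).

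In the MYC family and MAX network, *Mxi1*, a MAX partner that opposes MYC, fell under 5p (−0.79) and *Mycl* rose (0.46) among 10 genes tested (limma with the block), and *Mxi1* was also lower than under 3p (−0.82). Over the 8 KD libraries the extremes of this list were *Mxi1* (−0.21), *Mga* (−0.15), *Mxd4* (0.20) and *Mycl* (0.33). Among 10 AU-rich element binding and decay factors, *Zfp36l2*, which destabilizes such transcripts, fell under 5p (−0.57), and the extremes over the KD libraries were *Zfp36l2* (−0.29), *Khsrp* (−0.18), *Zfp36l1* (0.14) and *Ybx1* (0.17). Of 8 heat shock genes none passed for 5p against scr, *Dnajb1* was lower than under 3p (−0.40) and *Hsp90aa1* rose under SATS (0.54). In these blocked fits 2.37% of all genes were called for 5p, 3.26% for 5p against 3p and 2.64% for SATS.

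Markers of other cell types differed from scr in the 5p libraries. The summed primitive endoderm markers stood at 146% and 168% of scr in the 5p libraries of sets 2 and 3, 7 of 8 were higher and *Lama1* rose (0.71, limma with the block). The same sum stood at 126% in untreated cells of set 2 and at 89.9% under luciferase in set 3. Under 5p the summed trophectoderm markers stood at 93.7% and 71.5% with *Tfap2c* fallen (−0.42), and 6 of 7 tested were lower. The summed fibroblast markers stood at 93.0% and 66.0%, but 5 of 7 tested were higher, *Col1a1* fell (−0.75), and SP and luciferase of set 3 stood at 69.6% and 69.9%. Against 3p, *Lama1* (0.80) and *Col3a1* (0.61) were higher under 5p. The stem cell markers stood at 93.2% and 98.9%, with *Lin28a* fallen (−0.68). Their part in the 5p values of the early genes was not tested.

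The 9 genes varied in different ways. With each set's mean removed, over the 12 libraries of sets 2 and 3, which share 2 scr libraries, the highest correlation was that of *Junb* with *Atf3* (Pearson r = 0.81) and the lowest that of *Jun* with *Myc* (r = −0.64). *Junb* followed the mean of the other 8 most closely (r = 0.79), while *Egr1* (r = 0.14) and *Jun* (r = 0.07) did not follow it. Outside the 9, the genes most like their mean among 11026 genes with a mean normalized count of at least 50 were *Tgm1* (r = 0.95), *Ubxn8* (0.93), *Tamm41* (0.93), *Relb* (0.91) and *Fam46b* (0.91). The log2 difference of *Tgm1* from scr under 5p was −0.27 in set 2 and −0.79 in set 3. These coefficients describe the libraries and carry no test.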

How the data were processed

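The 16 RNA-seq libraries of serum-grown mESCs fall into 3 replicate sets. The 2 samples of 2i cells were not analysed here. The deposited values are a normalized signal: the authors used HISAT2 (mm10) for alignment and featureCounts for gene counts, and scaled the counts by 1 DESeq2 size factor per library (DESeq2 1.14.1 in the submitters' processing notes). Shared factors make levels comparable between libraries only as far as the median gene did not move. Every value was a whole multiple of 1 read (100% of values, tolerance 0.001), so reads were recovered. A second deposited table, of set 1 in CPM, was not used.

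Members and gene lists were chosen with earlier results of these data known. Log2(value + 1) was fitted with limma 3.58.1 (R 4.3.3, eBayes with trend) over genes whose values summed to 10 or more, as SP against scr over 3 sets (SP 1a to 1c averaged, 15970 genes) and as 10 libraries of sets 2 and 3 (16490 genes). P-values were adjusted over all genes (Benjamini-Hochberg, threshold 0.05). The pseudocount shrinks fold changes of genes with low values. Untreated and luciferase libraries, 1 each, entered no test. Alternatives were the replicate block, pseudocounts of 10 and 0.5, other filters, TMM without *Rn45s*, edgeR 4.0.16 and DESeq2 1.42.0 on recovered reads, and leaving out libraries. The fits were tested on simulated data.

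The set numbers in the labels mark replicate sets, and deviations of same-set libraries from their group means correlated at 0.80 (0.77 to 0.82) in the SP fit and 0.86 (0.81 to 0.93) in the panel, so the numbers were taken to pair the libraries and the blocked value is given beside a result where it changes the call. The paper calls its RNA-seq replicates independent but does not state that the sets are separate cultures. The p-values therefore measure the spread between these libraries, which may in part be technical. Intervals and the floor of 3 reads cover counting error only.

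Genes named beside the 9 were, for each list, those past a test and the 2 highest and 2 lowest mean differences over the KD libraries at a mean value of at least 50 (for the marker and heat shock lists, those past a test), and the 5 genes most correlated with the mean of the 9.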

Additional observations from a re-analysis of the deposited data

Results flagged for a closer look

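*Egr1* differed from scr in opposite directions in the 2 sets: all 4 KD libraries were higher than scr in set 2 (mean log2 difference 0.0847) and all 4 were lower in set 3 (mean −0.20). Each mean rests on 1 scr library, and the difference was not tested. *Junb* was lower than scr in all 3 SP libraries of set 1 (mean −0.17) and higher in the SP libraries of sets 2 and 3 (mean 0.17), and this difference was not tested either. *Myc* was higher than scr in the 3 SP libraries of set 1 (mean 0.37) and lower in those of sets 2 and 3 (mean −0.33), which was not tested. The 3 libraries of set 1 share 1 scr library. No member had an SP library far enough from the other 4 to stand out in a test of the extreme value. That test took the SP libraries of all 3 sets together. Levels differ between sets, so it cannot tell whether a library stood apart within its own set. For *Jun*, SP 1c (435) was far above 1a (98.7) and 1b (174) but below SP of sets 2 and 3 (947 and 569).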

How the results depend on the processing

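The replicate block decided how many genes passed. Without it limma called 0, 1, 1, 2, 0 and 0 genes for SP over the 3 sets, SP, 3p, 5p, SATS and 5p against 3p. With the replicate block it called 123 for SP, 47 for 3p, 391 for 5p, 436 for SATS and 537 for 5p against 3p, and 2 of the 9 genes in each of the comparisons with 5p. The edgeR fit with the block called 70 (SP over the 3 sets), 144, 51, 409, 551 and 535, and again 2 of the 9 genes in each of the comparisons with 5p. DESeq2 called 1, 21, 8, 66, 3 and 89, and none of the 9. Adding the untreated and luciferase libraries to scr gave 4 for SP, 2 for 3p and 27 for 5p. Using SP 1a alone for set 1 gave 1. Leaving out a library gave 1 gene for 5p each time. The block changed no other call among the 9 genes.

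Leaving out 1 library without the block leaves the sets unbalanced, and values that had not passed changed sign. For 5p against scr they ran from −0.99 to 0.0211 (*Dusp1*), −0.91 to 0.0151 (*Junb*), −1.19 to 0.23 (*Atf3*) and −1.24 to 0.28 (*Ier3*), for *Atf3* in 5p against 3p from −1.40 to 0.0186, for 3p from −0.93 to 0.16 (*Dusp1*) and −0.89 to 0.0877 (*Fos*), for *Dusp1* under SP from −0.75 to 0.23, and for *Ier3* under SATS from −0.0858 to 0.96. No value that passed changed sign. For set 3 against set 2, 7 to 8 of the 9 genes passed under every library left out. Depth limits set 1, where 3 to 54 reads lay behind *Fos*, *Jun*, *Ier3* and *Atf3*. The fits without 1 library take the lone library of a group to vary like the others.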
